A study of Mus musculus with 12 samples.

Results

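The 55 genes described here are RNA sensors, interferon-stimulated genes, NF-kB factors and inflammatory target genes, taken by name and without the genes of antigen presentation. All 55 had a row in both deposited expression tables, among 24318 gene rows, so none was absent by name. They were measured by RNA sequencing of polyadenylated RNA in N2a cells, a mouse neuroblastoma cell line, in 3 groups of 4 libraries. One group received brain-derived extracellular vesicles (BDEVs) labelled SE, which the title of the series ties to status epilepticus, a prolonged seizure. A second group received BDEVs labelled CON, an abbreviation that is not explained in the labels used here, and the third group, Vehicle, received vehicle. No vesicle dose, exposure time or vesicle donor is given in the labels used here, and all cells were of this 1 line with no genetic change named. The question addressed was whether vesicles, or the seizure history of their source, went with a change in these genes.

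Cells detect foreign or misplaced RNA with cytoplasmic helicases such as RIG-I (encoded by Ddx58) and MDA5 (Ifih1), which signal through the mitochondrial adaptor MAVS to the interferon regulatory factors IRF3 and IRF7 and to NF-kB. Secreted interferon then acts through a complex with STAT2 and IRF9 on genes with an interferon-stimulated response element (ISRE), whose products block viral replication. NF-kB is a family of dimeric transcription factors held in the cytoplasm by IkB proteins and released by Toll-like and cytokine receptors, and it drives chemokines, adhesion molecules and its own inhibitors. Extracellular vesicles are membrane-bound particles that carry RNA and protein between cells.

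RefSeq promoter windows on GRCm38.p6, 250 bases before to 50 bases after a gene's start, were matched for 44 of the 55 genes. The windows were searched on both strands for the ISRE letters (GAAA, any 2 bases, GAAA), for the kappa B consensus bound by NF-kB, and for the GAS letters TTCNNNGAA bound by STAT dimers. An ISRE was found for 16 of 44 genes (36.4%), against 3.99% of all 27025 genes with a window. A kappa B match was found for 14 genes (31.8%), against 9.55% of all genes, and a GAS match for 13 genes (29.5%), against 9.55% of all genes. A match is a description of the letters in the window and not a measured site, and matches of different motifs may overlap. The 5 windows printed here are those of the 2 genes that passed the test in these data (Nfkb2 and Lgals9), of 2 interferon-stimulated genes with low or barely detected RNA (Isg15 and Ifit3), and of the member with the highest level (Ifitm2). They are given 5′ to 3′ along the gene's strand, with every match in capitals: kappa B and GAS matches for Nfkb2, and ISRE matches for the others. They lie at chr19:46304487-46304786 on the plus strand for the most upstream start of Nfkb2, chr11:78984875-78985174 on the minus strand for Lgals9, chr4:156200769-156201068 on the minus strand for Isg15, chr19:34583279-34583578 on the plus strand for Ifit3 and chr7:140955912-140956211 on the minus strand for Ifitm2.
Nfkb2: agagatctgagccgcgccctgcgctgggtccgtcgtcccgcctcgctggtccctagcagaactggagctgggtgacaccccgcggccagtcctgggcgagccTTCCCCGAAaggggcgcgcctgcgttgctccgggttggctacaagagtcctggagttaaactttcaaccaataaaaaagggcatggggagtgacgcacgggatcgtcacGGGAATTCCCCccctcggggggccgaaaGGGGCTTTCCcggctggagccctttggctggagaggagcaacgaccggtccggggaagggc
Lgals9: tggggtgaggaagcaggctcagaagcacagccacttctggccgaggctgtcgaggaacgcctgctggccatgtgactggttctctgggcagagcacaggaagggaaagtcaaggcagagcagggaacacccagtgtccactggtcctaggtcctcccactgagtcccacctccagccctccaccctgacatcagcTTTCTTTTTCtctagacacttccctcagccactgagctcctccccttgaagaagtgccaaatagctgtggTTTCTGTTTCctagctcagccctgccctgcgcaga
Isg15: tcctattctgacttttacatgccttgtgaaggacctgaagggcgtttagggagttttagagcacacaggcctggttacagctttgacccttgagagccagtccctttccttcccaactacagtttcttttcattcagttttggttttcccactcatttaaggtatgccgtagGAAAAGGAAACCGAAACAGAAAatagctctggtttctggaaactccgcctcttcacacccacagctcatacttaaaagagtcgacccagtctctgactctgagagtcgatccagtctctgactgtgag
Ifit3: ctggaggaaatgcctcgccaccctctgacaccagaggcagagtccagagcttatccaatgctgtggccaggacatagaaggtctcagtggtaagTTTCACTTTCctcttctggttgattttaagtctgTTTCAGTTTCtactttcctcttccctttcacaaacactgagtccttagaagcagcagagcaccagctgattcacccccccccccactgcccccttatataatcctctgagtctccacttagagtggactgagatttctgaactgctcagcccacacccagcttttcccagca
Ifitm2: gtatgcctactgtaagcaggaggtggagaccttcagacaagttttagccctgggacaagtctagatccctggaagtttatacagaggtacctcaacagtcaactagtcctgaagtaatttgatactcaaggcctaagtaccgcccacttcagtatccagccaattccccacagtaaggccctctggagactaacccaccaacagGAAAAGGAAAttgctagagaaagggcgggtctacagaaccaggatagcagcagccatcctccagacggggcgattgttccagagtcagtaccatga

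Depth was about 12400000 to 14300000 fragments per library in SE-BDEV, 12200000 to 13400000 in CON-BDEV and 14000000 to 14900000 in Vehicle. It was estimated from the lowest FPKM values, each taken as 1 fragment. Where such a value holds more, the depth and the fragment numbers given below are too low. FPKM, the unit of the authors' values, counts fragments relative to transcript length and to a measure of library size. All 8 housekeeping genes examined were above 0 in all 12 libraries. Of 12 markers of noradrenergic neuroblastoma, 11 reached a mean of 1 FPKM. Their summed level was 680 to 722 FPKM under Vehicle, 733 to 778 with SE-BDEV and 750 to 791 with CON-BDEV. The sum thus moved with vesicle treatment, but single markers moved both ways. For either vesicle kind, 9 of the 11 had a log2 fold change above 0 against Vehicle and 2 below. At an adjusted p under 0.05 in limma, 3 were higher and 0 lower with SE-BDEV, and 6 higher and 1 lower with CON-BDEV. Of all genes tested, 0.292% were higher and 0.628% lower by this threshold in SE-BDEV, and 1.02% higher and 1.82% lower in CON-BDEV. Of the 9 above 0, Dbh averaged 4.50 FPKM under Vehicle, 6.82 FPKM with SE-BDEV and 6.77 FPKM with CON-BDEV. Of the 2 below 0, Stmn2 averaged 158 FPKM under Vehicle and 138 FPKM with either vesicle kind. The part of these markers in the results was not tested. Microglia and macrophage markers summed to 1.94 to 1.98 FPKM in SE-BDEV, 1.90 to 2.47 in CON-BDEV and 1.41 to 2.14 in Vehicle libraries, with 1 of 12 at a mean of 1 FPKM and C1qb, C1qc and Trem2 listed at 0. None of the 7 astrocyte markers reached that mean, with sums of 0.744 to 1.09 FPKM in SE-BDEV, 0.722 to 0.902 in CON-BDEV and 1.04 to 1.25 in Vehicle libraries. Of the oligodendrocyte markers 3 of 6 and of the endothelial markers 1 of 6 reached it, with sums that overlapped between all 3 groups (16.8 to 19.9 FPKM and 3.41 to 4.51 FPKM over the 12 libraries). Over all genes SE-BDEV replicate 2 stood farthest from its group, with a median absolute deviation of 0.0722 on the log2 scale, against 0.0301 to 0.0519 in the other 11 libraries. Over the tested genes of the 55 it deviated by 0.0762, less than CON-BDEV replicates 1 and 2 at 0.0804 and 0.0798.

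N2a cells expressed most signalling parts of these pathways and had little RNA of many genes that they induce. Averaged over the 12 libraries, 33 of the 55 genes reached 1 FPKM, from 1.11 to 132 FPKM, and 19 of these reached 10 FPKM. The other 22 lay under 1 FPKM and 17 of them under 0.5 FPKM. By role, 4 of 6 RNA sensors and partners, 5 of 6 transcription factors of the interferon and cytokine pathways, 9 of 19 interferon-stimulated effectors, 6 of 8 NF-kB factors and inhibitors, 3 of 4 receptors and adaptors, 4 of 9 inflammatory targets and 2 of 3 acute phase and STAT3 genes reached 1 FPKM. Of the 16 genes with an ISRE in their window, 7 had a mean under 1 FPKM.

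**Figure D1:**
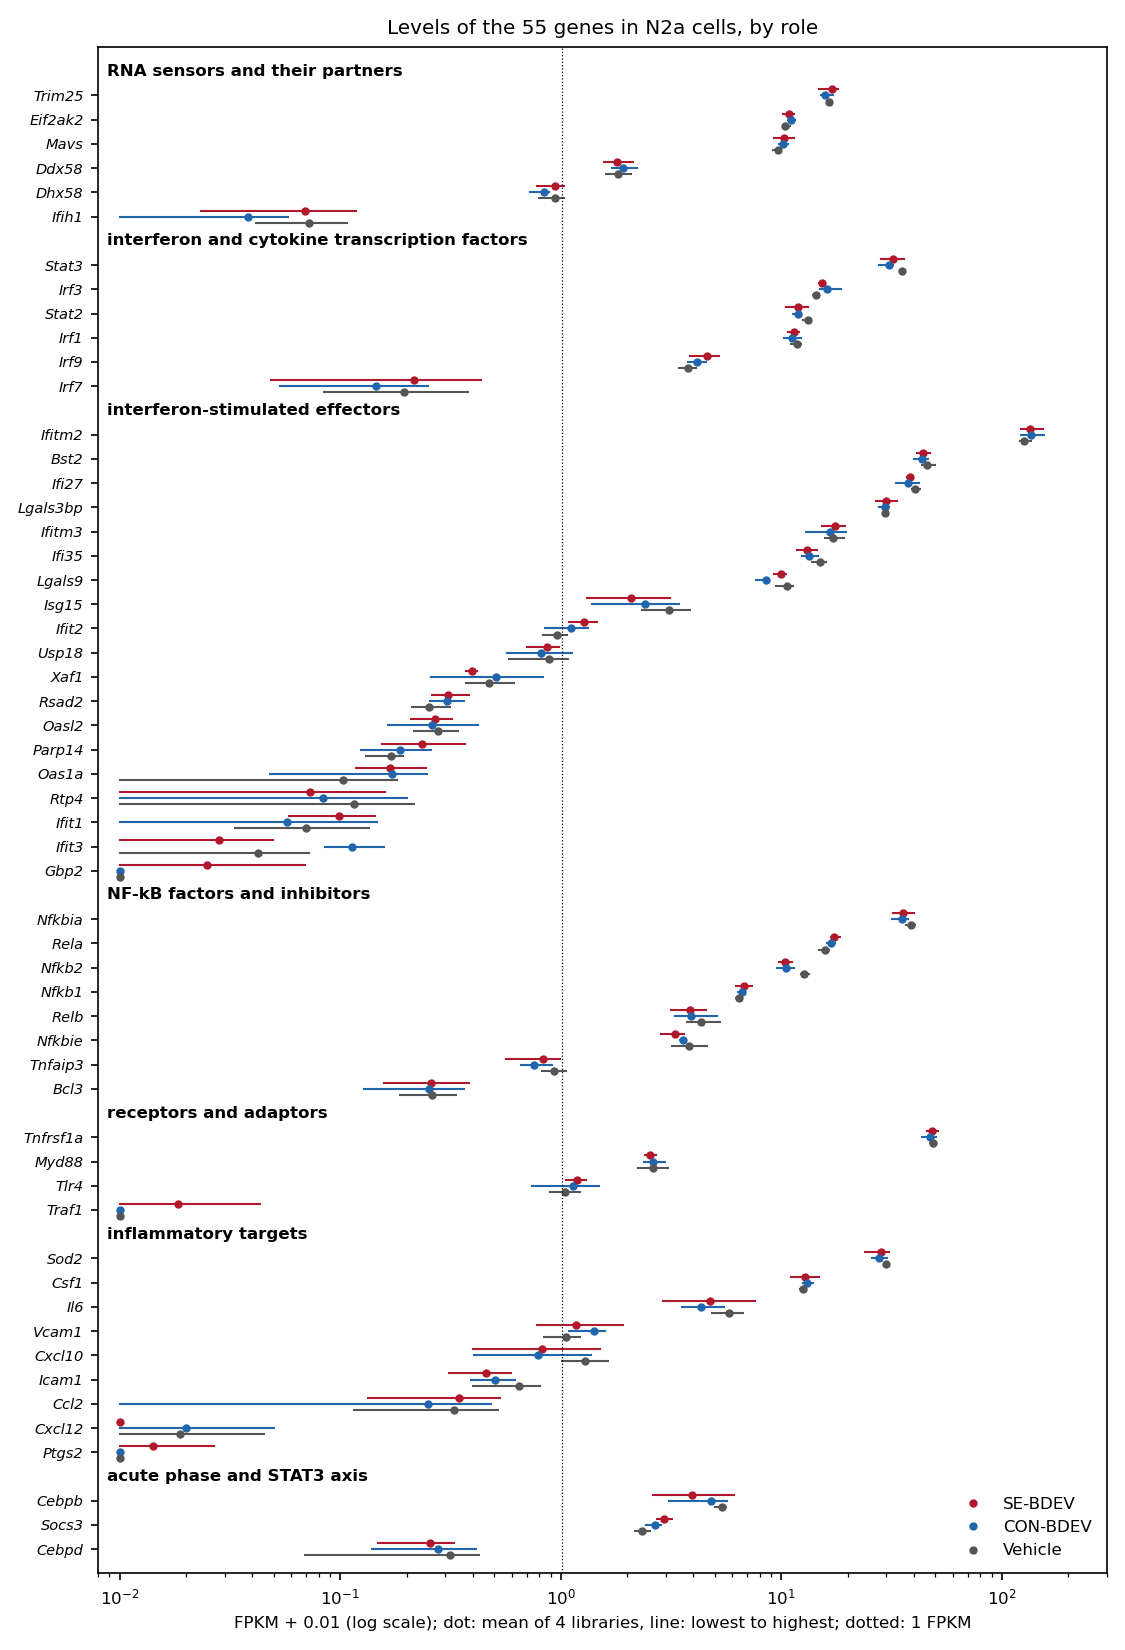
Level of each of the 55 genes as FPKM + 0.01 on a log axis, by role, with a dot at the mean of the 4 SE-BDEV, CON-BDEV or Vehicle libraries, a line from the lowest to the highest and a dotted line at 1 FPKM. The genes span from Ifitm2, with a mean of 132 FPKM over the 12 libraries, to Gbp2, Traf1, Cxcl12 and Ptgs2, listed at 0 in at least 10 of 12 libraries.

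The genes under 1 FPKM ran from genes listed at 0 in most libraries to Tnfaip3, at about 43 to 97 fragments per library. The MDA5 gene Ifih1 ranged from 0.0134 to 0.108 FPKM in SE-BDEV, 0 to 0.0482 in CON-BDEV and 0.0314 to 0.0971 in Vehicle libraries, which is about 0 to 8 fragments. Irf7, the regulator that interferon itself induces, ranged from 0.0388 to 0.427 FPKM in SE-BDEV, 0.0435 to 0.241 in CON-BDEV and 0.0742 to 0.368 in Vehicle libraries. For both genes the 3 groups overlapped. Ifit3, an interferon-stimulated gene like Ifit1, was at 0 to 0.0399 FPKM in SE-BDEV, 0.0751 to 0.148 in CON-BDEV and 0 to 0.0622 in Vehicle libraries. The CON-BDEV libraries were thus the highest for Ifit3, on about 0 to 3 fragments per library, and the gene was too low to be tested. Ifit1, Oas1a and Oasl2, which bind or degrade viral RNA, had means over the 12 libraries of 0.0654, 0.138 and 0.260 FPKM. Rsad2 (viperin) averaged 0.279 FPKM, Usp18, which removes ISG15 from proteins, 0.846 FPKM, and Dhx58, the sensor LGP2, 0.894 FPKM. Xaf1, Parp14 and Rtp4 averaged 0.449, 0.188 and 0.0808 FPKM.

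Tnfaip3, the feedback inhibitor A20, averaged 0.824 FPKM in SE-BDEV, 0.747 FPKM in CON-BDEV and 0.923 FPKM in Vehicle libraries. Icam1, an adhesion molecule, ranged from 0.303 to 0.584 FPKM in SE-BDEV, 0.381 to 0.612 FPKM in CON-BDEV and 0.389 to 0.794 FPKM in Vehicle libraries, so its groups overlapped. Bcl3, an IkB protein that acts in the nucleus, Cebpd, an acute phase transcription factor, and the chemokine Ccl2 averaged 0.246, 0.272 and 0.298 FPKM over the 12 libraries. Gbp2, Traf1, Cxcl12 and Ptgs2 (cyclooxygenase-2) were listed at 0 in at least 10 of 12 libraries, and none of the 55 genes was listed at 0 in all 12. In all, 10 genes were listed at 0 in at least 1 library.

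Against Vehicle, SE-BDEV treatment went with a lower level of 1 of the 34 tested genes of the list, Nfkb2. By the same limma test 0.919% of all genes had an adjusted p under 0.05. Nfkb2 encodes the p100 precursor that is processed to the NF-kB subunit p52. Nfkb2 (mm9 chromosome 19, 46379226 to 46401646) had 10.5, 10.2, 9.80 and 11.2 FPKM in SE-BDEV replicates 1 to 4, 9.52, 11.4, 11.4 and 9.72 FPKM in CON-BDEV, and 12.6, 12.3, 12.4 and 13.3 FPKM in Vehicle replicates. Every vesicle library of either kind lay below every Vehicle library. The means were 10.4 ± 0.572 FPKM in SE-BDEV and 12.6 ± 0.467 FPKM in Vehicle (SD, n = 4 each). In limma the log2 fold change of Nfkb2 was −0.26 (standard error 0.05, 95% interval −0.37 to −0.15), with an adjusted p of 0.0441. In bulk RNA, fewer cells expressing a gene and less RNA per cell cannot be told apart. Its promoter window is the one printed first above, with kappa B and GAS matches.

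A gene was called where its adjusted p was under 0.05, over all genes that averaged at least 1 FPKM in the fit. Of the 55 genes 34 were tested in SE-BDEV against Vehicle, of which 0 were called higher and 1 lower. Of all 11311 genes tested, 0.292% were called higher and 0.628% lower, 0.919% in all. By unadjusted p under 0.05, 4 of the 34 were higher and 4 lower, against 7.93% and 6.89% of all genes, 14.8% in all. The median log2 fold change of the 34 was −0.02, beside 0.01 over all genes, and ran from −0.0488 without SE-BDEV replicate 4 to −0.0013 without Vehicle replicate 1. For 5 of the 34 the groups of 4 did not overlap: Irf3, Ifit2, Rela and Socs3 lay above Vehicle and Nfkb2 below, against 5.77% of all genes above and 4.39% below, 10.2% in all. The 95% interval for FPKM + 1 lay within a 1.5-fold change in either direction for 30 of the 34. It reached beyond this for Isg15, Il6, Cxcl10 and Cebpb. For genes near 1 FPKM this bound allows more than a 1.5-fold change of FPKM itself. The Nfkb2 call was lost when SE-BDEV replicate 1 (adjusted p = 0.0905) or 3 (adjusted p = 0.0990), or Vehicle replicate 1, 2, 3 or 4 (adjusted p = 0.137, 0.106, 0.122 and 0.140), was left out. The count over all genes of 104 moved between 5 without Vehicle replicate 2 and 315 without SE-BDEV replicate 2.

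Against Vehicle, CON-BDEV treatment also went with a lower level of 1 of the 34 tested genes of the list, Lgals9. By the same limma test 2.84% of all genes had an adjusted p under 0.05. Lgals9 encodes galectin-9, an interferon-inducible lectin. Lgals9 (mm9 chromosome 11, 78776480 to 78798426) had 10, 9.26, 10.5 and 10.2 FPKM in SE-BDEV replicates 1 to 4, 8.79, 8.72, 8.80 and 7.65 FPKM in CON-BDEV, and 10.8, 10.7, 11.3 and 9.45 FPKM in Vehicle replicates. The CON-BDEV libraries lay below all others, while SE-BDEV and Vehicle overlapped. The means were 8.49 ± 0.563 FPKM in CON-BDEV and 10.6 ± 0.800 FPKM in Vehicle (SD, n = 4 each). Its log2 fold change was −0.29 (standard error 0.06, 95% interval −0.42 to −0.15) with an adjusted p of 0.0351 in limma. In SE-BDEV against Vehicle the log2 fold change of Lgals9 was −0.07 (95% interval −0.21 to 0.06). The Lgals9 call was lost without CON-BDEV replicate 3 (adjusted p = 0.0626) or 4 (adjusted p = 0.0919), or without Vehicle replicate 1, 2 or 3 (adjusted p = 0.107, 0.0945 and 0.108).

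In CON-BDEV against Vehicle 34 of the 55 genes were tested, with 0 called higher and 1 lower. Of all 11320 genes tested, 1.02% were called higher and 1.82% lower, 2.84% in all. By unadjusted p under 0.05, 2 of the 34 were higher and 9 lower, against 9.58% and 9.56% of all genes, 19.1% in all. The median log2 fold change of the 34 was −0.05, beside 0.00 over all genes. Without CON-BDEV replicate 1 the median of the 34 was −0.0036. For 5 genes the groups did not overlap: Irf3 lay above Vehicle and Stat2, Stat3, Lgals9 and Nfkb2 below, against 5.68% of all genes above and 6.24% below, 11.9% in all. Nfkb2 missed the threshold here with a log2 fold change of −0.25 and an adjusted p of 0.0584, and passed it without CON-BDEV replicate 2 (adjusted p = 0.0329). The interval for FPKM + 1 lay within a 1.5-fold change for 31 of the 34, and beyond it for Isg15, Il6 and Cxcl10. As above, this bound allows a larger change of FPKM itself for genes near 1 FPKM. The 321 genes called over all genes were 134 without Vehicle replicate 1 and 556 without CON-BDEV replicate 1. SE-BDEV and CON-BDEV were compared with the same 4 Vehicle libraries, so their 2 sets of fold changes are not independent.

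**Figure D2:**
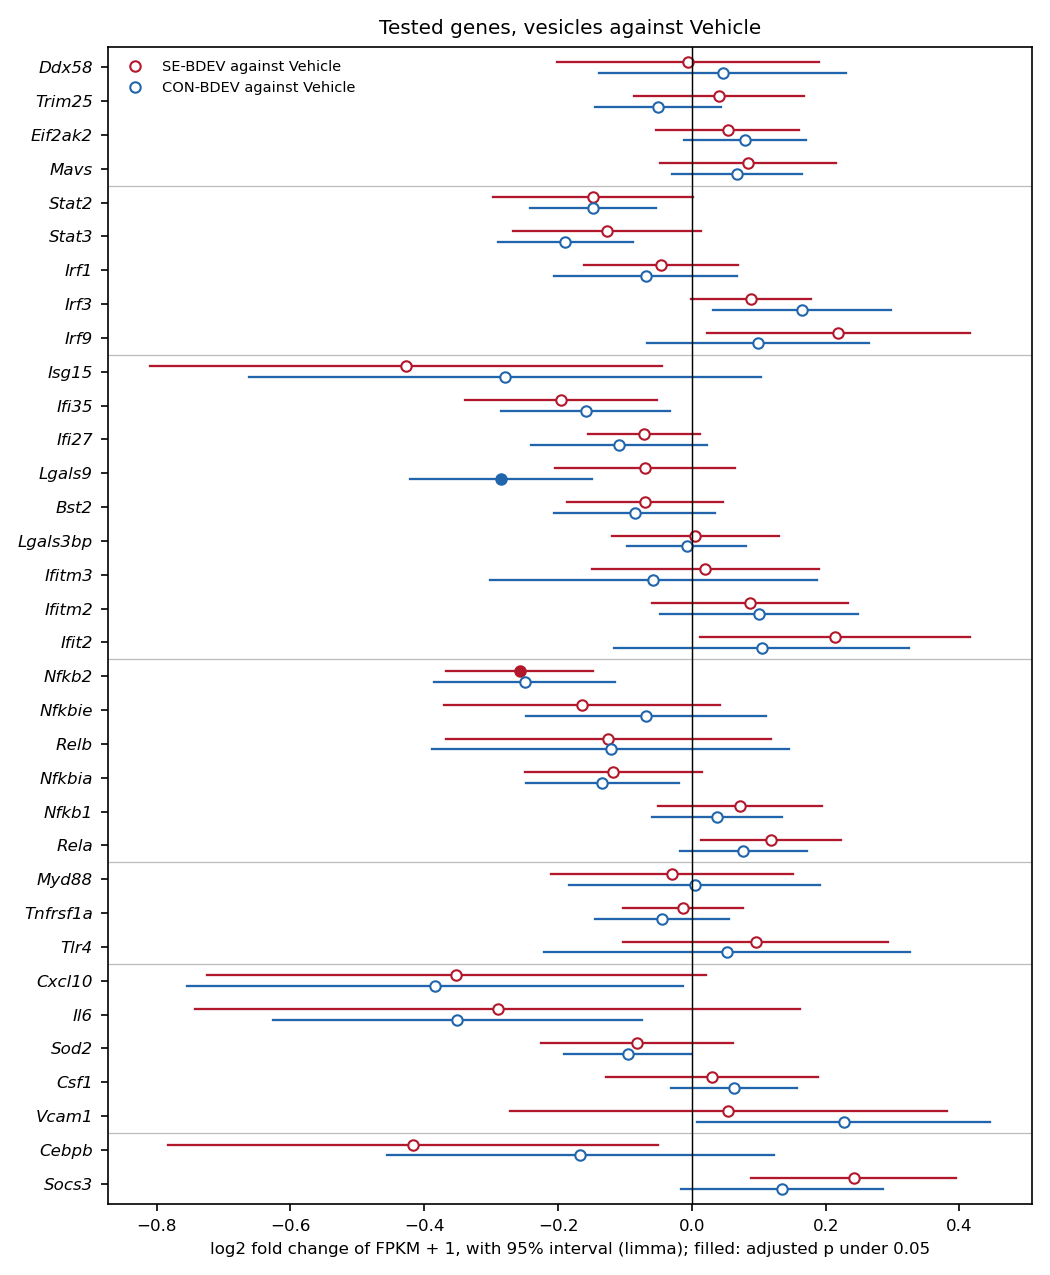
Log2 fold changes of FPKM + 1 with 95% intervals from limma for the genes tested in SE-BDEV and in CON-BDEV against Vehicle, 4 libraries a group, ordered by role; filled points have an adjusted p under 0.05. Nfkb2 at −0.26 in SE-BDEV and Lgals9 at −0.29 in CON-BDEV are the filled points, and most intervals cross 0.

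A fit of the same 12 libraries, and so not independent of the comparisons above, set vesicles of either kind against Vehicle. There Nfkb2 was the gene called. Its log2 fold change was −0.25 (standard error 0.05) with an adjusted p of 0.0199 in limma, and it was lower in 8 of 8 vesicle libraries. Of 33 genes tested 0 were called higher and 1 lower, against 1.53% and 1.84% of all 11312 genes, 3.37% in all. By unadjusted p under 0.05, 3 were higher and 6 lower, against 10.1% and 8.67% of all genes, 18.8% in all. The call was lost without Vehicle replicate 1, 2, 3 or 4 (adjusted p = 0.0734, 0.0524, 0.0611 and 0.0824), and kept when any 1 vesicle library was left out. Nfkb2 overlaps Psd on the other strand in a newer annotation. Psd averaged 18.1 FPKM in SE-BDEV, 17.7 FPKM in CON-BDEV and 17.6 FPKM in Vehicle libraries, with log2 fold changes of 0.04 in SE-BDEV and 0.01 in CON-BDEV against Vehicle.

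Between SE-BDEV and CON-BDEV no gene was called. Of 33 genes tested 0 were called higher and 0 lower, and of all 11312 genes 0% were called in either direction. By unadjusted p under 0.05 in limma 296 of all genes differed (2.62% in all, 1.25% higher and 1.37% lower), and 1 of the 33, Lgals9, which was higher in SE-BDEV. The log2 fold change of Lgals9 was 0.22 (standard error 0.06, 95% interval 0.08 to 0.35), with an unadjusted p of 0.0036 and an adjusted p of 1.00. Lgals9 was also the 1 gene whose SE-BDEV and CON-BDEV libraries did not overlap, with SE-BDEV above, against 0.760% of all genes above and 0.628% below, 1.39% in all. The median log2 fold change of the 33 was 0.02, beside 0.01 over all genes. It turned to −0.0150 without CON-BDEV replicate 1 and −0.0090 without SE-BDEV replicate 4, and was 0.0329 without CON-BDEV replicate 2 and 0.0283 without SE-BDEV replicate 1. For 32 of the 33 the 95% interval for FPKM + 1 lay within a 1.5-fold change in either direction. This bound is wider in FPKM itself for genes near 1 FPKM. For Cebpb the interval ran from −0.64 to 0.14.

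**Figure D3:**
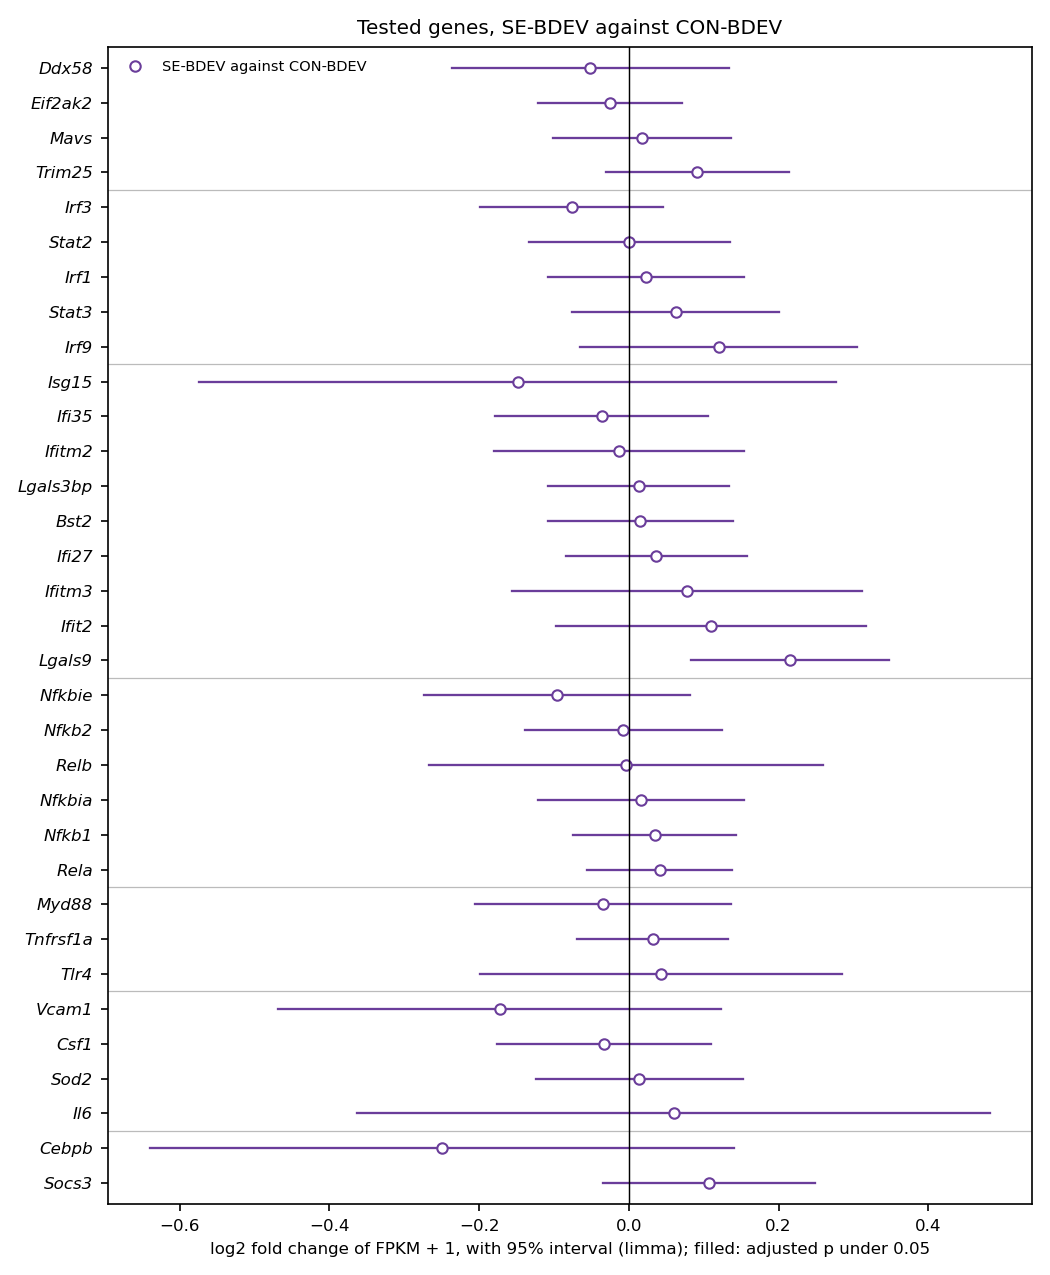
Log2 fold changes of FPKM + 1 in SE-BDEV against CON-BDEV with 95% intervals from limma in the fit of all 12 libraries, ordered by role; no gene had an adjusted p under 0.05, so all points are open. Lgals9 at 0.22 is the gene whose interval leaves out 0.

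Among the RNA sensors and their partners, 4 were tested and 0 called in each comparison. Trim25, the ubiquitin ligase that activates RIG-I, had 18, 14.8, 17.8 and 17.2 FPKM in SE-BDEV, 17.2, 15.1, 15.6 and 15.5 FPKM in CON-BDEV, and 16.3, 16.5, 16.6 and 16.4 FPKM in Vehicle replicates. Eif2ak2, which encodes PKR, the kinase that halts translation on binding double-stranded RNA, had 11.2, 11.4, 10.2 and 10.8 FPKM in SE-BDEV, 10.8, 11.2, 11.5 and 10.8 FPKM in CON-BDEV, and 10.3, 10.9, 10.3 and 10.2 FPKM in Vehicle replicates. For both genes the vesicle groups overlapped Vehicle. The log2 fold changes of Trim25 were 0.04 in SE-BDEV and −0.05 in CON-BDEV, and those of Eif2ak2 were 0.05 in SE-BDEV and 0.08 in CON-BDEV. Ddx58 averaged 1.8 FPKM in SE-BDEV, 1.9 FPKM in CON-BDEV and 1.81 FPKM in Vehicle libraries. Mavs averaged 10.3 FPKM in SE-BDEV, 10.2 FPKM in CON-BDEV and 9.65 FPKM in Vehicle libraries.

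The transcription factors of the interferon and cytokine pathways were well expressed apart from Irf7. Irf3, which the RNA sensors activate, had 15.7, 14.8, 15.6 and 15.0 FPKM in SE-BDEV, 15.6, 18.6, 15.5 and 15.0 FPKM in CON-BDEV, and 14.7, 13.9, 14.5 and 14.0 FPKM in Vehicle replicates. Each vesicle library lay above each Vehicle library, narrowly where SE-BDEV replicate 2 at 14.8 FPKM met Vehicle replicate 1 at 14.7 FPKM. Its log2 fold change was 0.09 in SE-BDEV (unadjusted p = 0.0543) and 0.16 in CON-BDEV (unadjusted p = 0.0201, adjusted p = 0.170). Irf3 overlaps Bcl2l12 on the other strand, which averaged 1.59 FPKM in SE-BDEV, 1.36 FPKM in CON-BDEV and 1.17 FPKM in Vehicle libraries. Bcl2l12 had a log2 fold change of 0.25 in SE-BDEV and 0.11 in CON-BDEV. The strand setting of the counting is not given, so reads from exon sequence that the 2 genes share may have been counted for either. How long the shared sequence is was not measured. The same holds for the other opposite-strand pairs named with their values here. Irf9, the DNA-binding partner of STAT2, had 3.83, 4.36, 5.20 and 4.92 FPKM in SE-BDEV, 4.56, 3.82, 3.78 and 4.32 FPKM in CON-BDEV, and 3.44, 4.09, 4.11 and 3.49 FPKM in Vehicle replicates. SE-BDEV replicate 1 lay within the Vehicle range, and the log2 fold change of 0.22 in SE-BDEV had an unadjusted p of 0.0325 and an adjusted p of 0.282. Irf9 shares exon sequence with Rnf31 on the same strand, where strand cannot separate reads of the shared part. Rnf31 had a log2 fold change of 0.07 in SE-BDEV and 0.05 in CON-BDEV.

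The 2 STAT genes of the list had lower means in both vesicle groups than in Vehicle, and neither passed the test. Stat2, the partner of IRF9, had 13.2, 10.5, 11.2 and 12.7 FPKM in SE-BDEV, 11.5, 12.3, 12.3 and 11.3 FPKM in CON-BDEV, and 13.4, 13.3, 12.6 and 13.7 FPKM in Vehicle replicates. Its CON-BDEV libraries lay below all Vehicle libraries, and its SE-BDEV libraries overlapped them. Its log2 fold change was −0.15 in both vesicle groups, with adjusted p of 0.342 in SE-BDEV and 0.0964 in CON-BDEV. Stat3, which carries interleukin-6 signals, had 33.8, 28.4, 30.9 and 35.9 FPKM in SE-BDEV, 31.6, 32.2, 31.5 and 27.8 FPKM in CON-BDEV, and 34.5, 35.5, 36.2 and 34.5 FPKM in Vehicle replicates. Stat3 had a log2 fold change of −0.13 in SE-BDEV (adjusted p = 0.386) and −0.19 in CON-BDEV (adjusted p = 0.0560). It passed the threshold in CON-BDEV without CON-BDEV replicate 1 (adjusted p = 0.0464) or 2 (adjusted p = 0.0399). Stat3 overlaps Stat5a on the other strand, which averaged 2.22 FPKM in SE-BDEV, 2.68 FPKM in CON-BDEV and 2.36 FPKM in Vehicle libraries. Irf1 averaged 11.4 FPKM in SE-BDEV, 11.2 FPKM in CON-BDEV and 11.8 FPKM in Vehicle libraries.

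**Figure D4:**
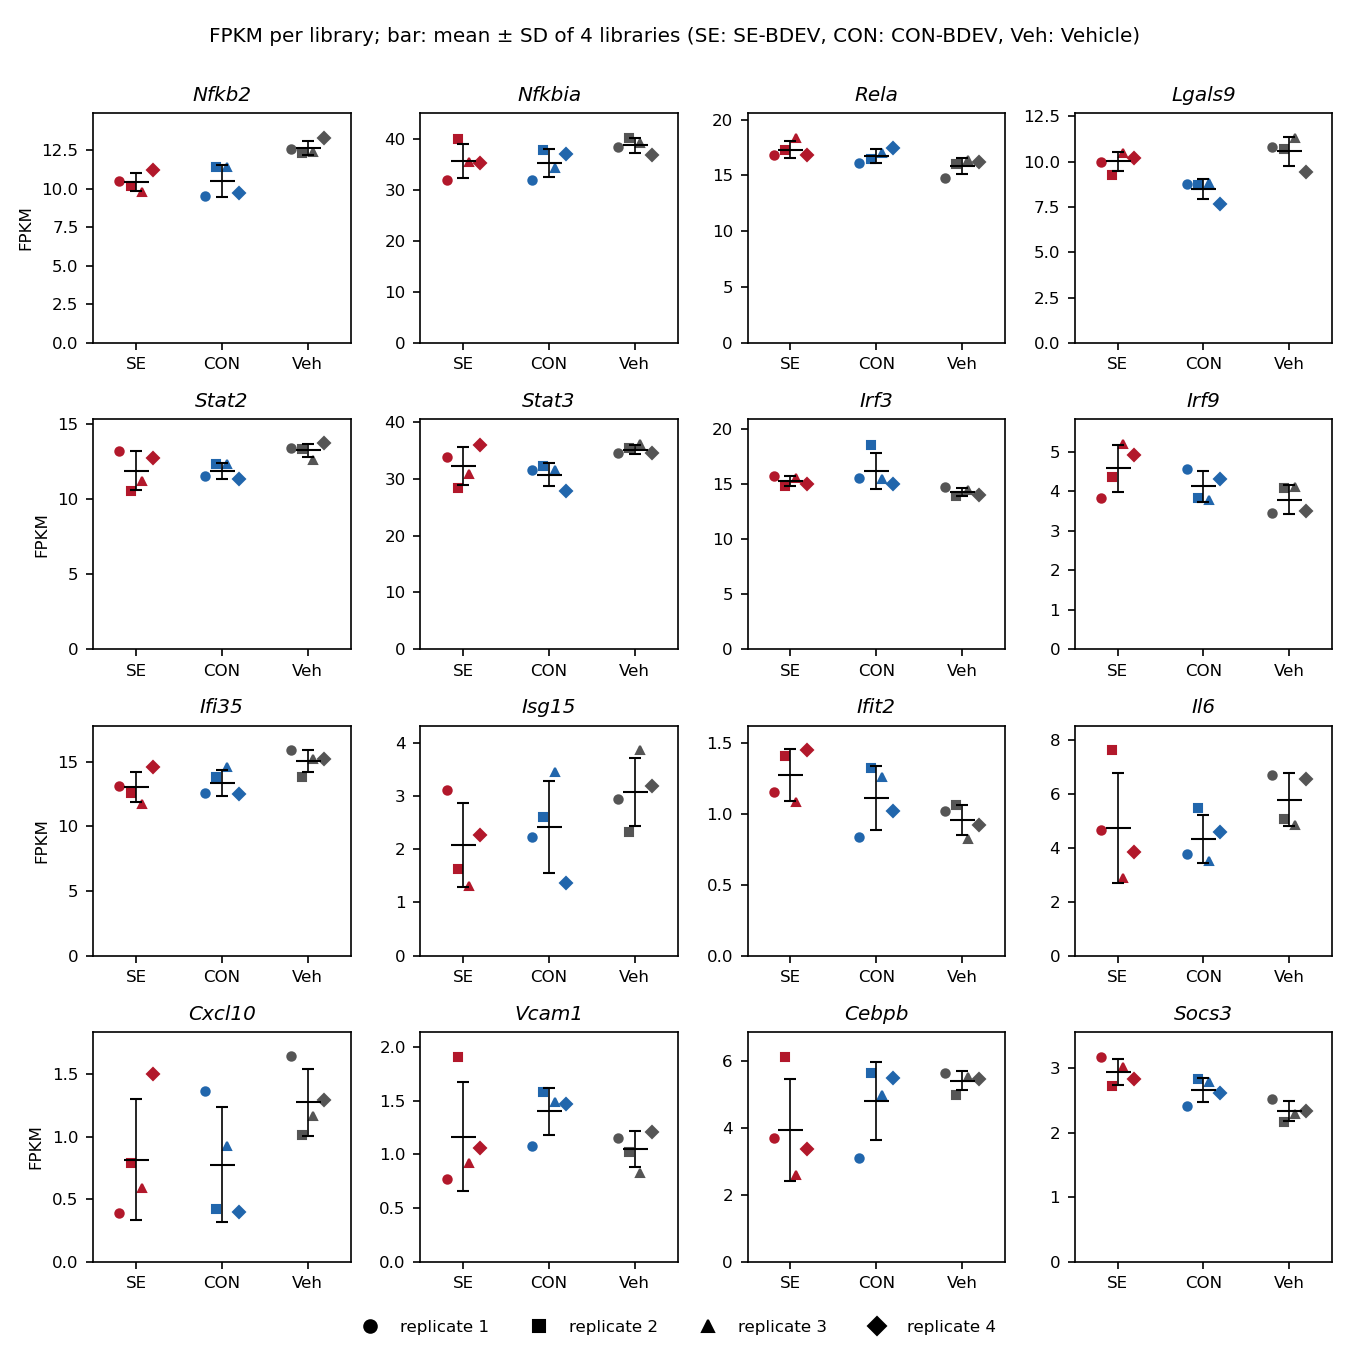
FPKM of 16 genes in each library of the SE-BDEV, CON-BDEV and Vehicle groups, 1 panel a gene with its own axis from 0; symbols mark replicates 1 to 4 and bars the mean ± SD of 4 libraries. All vesicle libraries of Nfkb2 sit below the Vehicle libraries, and the CON-BDEV libraries of Lgals9, at 7.65 to 8.80 FPKM, sit below those of both other groups.

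Of the 9 interferon-stimulated effectors tested, Lgals9 in CON-BDEV against Vehicle was the 1 call. Isg15, a ubiquitin-like protein that is among the most strongly interferon-induced genes, had 3.11, 1.63, 1.30 and 2.26 FPKM in SE-BDEV, 2.23, 2.61, 3.45 and 1.37 FPKM in CON-BDEV, and 2.95, 2.32, 3.86 and 3.18 FPKM in Vehicle replicates. These values rest on about 12 to 42 fragments per library, and both vesicle groups overlapped Vehicle. Isg15 had a log2 fold change of −0.43 in SE-BDEV (95% interval −0.81 to −0.04, adjusted p = 0.279) and −0.28 in CON-BDEV (−0.66 to 0.10). Its window with 3 overlapping ISRE matches thus belongs to a gene with no called change. Ifit2, an RNA-binding inhibitor of translation, had 1.15, 1.41, 1.08 and 1.45 FPKM in SE-BDEV, 0.837, 1.32, 1.26 and 1.02 FPKM in CON-BDEV, and 1.02, 1.06, 0.825 and 0.917 FPKM in Vehicle replicates. The SE-BDEV libraries lay above the Vehicle libraries, narrowly where SE-BDEV replicate 3 at 1.08 FPKM met Vehicle replicate 2 at 1.06 FPKM. Ifit2 had about 43 to 79 fragments per library. Its log2 fold change of 0.21 in SE-BDEV had an adjusted p of 0.307 in limma. Ifi35, an interferon-induced leucine zipper protein, had 13.1, 12.6, 11.7 and 14.6 FPKM in SE-BDEV, 12.6, 13.8, 14.6 and 12.5 FPKM in CON-BDEV, and 15.9, 13.8, 15.2 and 15.2 FPKM in Vehicle replicates. Vehicle replicate 2 lay within the range of both vesicle groups. Ifi35 had a log2 fold change of −0.20 in SE-BDEV (unadjusted p = 0.0124, adjusted p = 0.195) and −0.16 in CON-BDEV (unadjusted p = 0.0185, adjusted p = 0.164).

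Ifitm2 and Bst2 were the most abundant effectors, and neither was called. Ifitm2, which keeps viruses from fusing with endosomes, had 122, 126, 136 and 153 FPKM in SE-BDEV, 125, 140, 123 and 155 FPKM in CON-BDEV, and 124, 123, 121 and 136 FPKM in Vehicle replicates. Bst2 (tetherin), which holds budding virus particles at the cell surface, had 42.4, 43.9, 41.2 and 47.4 FPKM in SE-BDEV, 41.5, 39.9, 45.3 and 46.4 FPKM in CON-BDEV, and 44.2, 43.6, 49.6 and 46.4 FPKM in Vehicle replicates. In both genes the 3 groups overlapped. The log2 fold change of Ifitm2 was 0.09 in SE-BDEV and 0.10 in CON-BDEV, and that of Bst2 was −0.07 in SE-BDEV and −0.09 in CON-BDEV. Ifi27 averaged 38.4 FPKM in SE-BDEV, 37.5 FPKM in CON-BDEV and 40.4 FPKM in Vehicle libraries. Lgals3bp, a secreted galectin-3-binding protein, averaged 29.8 FPKM in SE-BDEV, 29.5 FPKM in CON-BDEV and 29.6 FPKM in Vehicle libraries. Ifitm3, a relative of Ifitm2, averaged 17.4 FPKM in SE-BDEV, 16.6 FPKM in CON-BDEV and 17.2 FPKM in Vehicle libraries. Ifitm2 shares exon sequence with a same-strand gene model, and Ifitm3 is a related gene. Whether reads were shared between them was not tested, so their single values are uncertain. Across the 10 tested genes with an ISRE match, 3 log2 fold changes were above 0 and 7 below in SE-BDEV, and 4 above and 6 below in CON-BDEV, with 1 called in CON-BDEV (Lgals9). Of the 11 tested with a kappa B match, 3 were above 0 and 8 below in SE-BDEV, with 1 called (Nfkb2), and 2 above and 9 below in CON-BDEV, with 0 called. Of the 11 with a GAS match, 4 were above 0 and 7 below in either vesicle group, with 1 called in SE-BDEV (Nfkb2). Among all genes 6179 were above 0 and 5132 below in SE-BDEV, with 0.919% called, and 5891 above and 5429 below in CON-BDEV, with 2.84% called.

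Beside Nfkb2, 5 NF-kB factors and inhibitors were tested and none was called. Rela, the p65 subunit that activates transcription, had 16.8, 17.3, 18.4 and 16.8 FPKM in SE-BDEV, 16.1, 16.5, 17.0 and 17.5 FPKM in CON-BDEV, and 14.8, 16.0, 16.4 and 16.2 FPKM in Vehicle replicates. The SE-BDEV libraries lay above Vehicle and the CON-BDEV libraries overlapped it. Rela had a log2 fold change of 0.12 in SE-BDEV (unadjusted p = 0.0309, adjusted p = 0.277) and 0.08 in CON-BDEV. Nfkbia, which encodes the inhibitor IkB-alpha and is itself an NF-kB target, had 32.0, 39.9, 35.4 and 35.3 FPKM in SE-BDEV, 31.9, 37.7, 34.3 and 37.0 FPKM in CON-BDEV, and 38.4, 40.2, 39.2 and 36.9 FPKM in Vehicle replicates. Both vesicle groups overlapped Vehicle. The log2 fold change of Nfkbia was −0.12 in SE-BDEV (adjusted p = 0.390) and −0.13 in CON-BDEV (unadjusted p = 0.0255, adjusted p = 0.191). Nfkb1, the p50 precursor, averaged 6.79 FPKM in SE-BDEV, 6.60 FPKM in CON-BDEV and 6.41 FPKM in Vehicle libraries. Relb, the partner of p52, averaged 3.85 FPKM in SE-BDEV, 3.89 FPKM in CON-BDEV and 4.30 FPKM in Vehicle libraries, and its log2 fold change against Vehicle was −0.13 in SE-BDEV and −0.12 in CON-BDEV. Nfkbie, another IkB gene, averaged 3.28 FPKM in SE-BDEV, 3.57 FPKM in CON-BDEV and 3.81 FPKM in Vehicle libraries.

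Of the receptors and adaptors 3 were tested and 0 called. Tnfrsf1a, the main receptor for tumour necrosis factor, had 46.0, 51.1, 48.1 and 48.6 FPKM in SE-BDEV, 43.4, 50.3, 47.0 and 49.0 FPKM in CON-BDEV, and 50.1, 47.2, 50.5 and 47.8 FPKM in Vehicle replicates. Its log2 fold change was −0.01 in SE-BDEV (95% interval −0.10 to 0.08) and −0.04 in CON-BDEV (−0.15 to 0.06). Myd88, the adaptor of Toll-like receptors, had 2.41, 2.71, 2.57 and 2.41 FPKM in SE-BDEV, 2.39, 2.60, 2.5 and 2.98 FPKM in CON-BDEV, and 2.43, 3.05, 2.24 and 2.72 FPKM in Vehicle replicates. Its groups overlapped, with a log2 fold change of −0.03 in SE-BDEV (−0.21 to 0.15) and 0.00 in CON-BDEV (−0.18 to 0.19). Myd88 overlaps Acaa1a on the other strand, at 4.24 FPKM in SE-BDEV, 4.24 FPKM in CON-BDEV and 4.55 FPKM in Vehicle libraries. Tlr4, the receptor for bacterial lipopolysaccharide, averaged 1.18 FPKM in SE-BDEV, 1.13 FPKM in CON-BDEV and 1.04 FPKM in Vehicle libraries.

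No inflammatory target was called. Il6, the cytokine that acts through STAT3, had 4.66, 7.62, 2.89 and 3.84 FPKM in SE-BDEV, 3.76, 5.48, 3.53 and 4.58 FPKM in CON-BDEV, and 6.72, 5.06, 4.84 and 6.54 FPKM in Vehicle replicates. SE-BDEV replicate 2 held the highest value of all 12 libraries and SE-BDEV replicate 3 the lowest. Il6 had a log2 fold change of −0.29 in SE-BDEV (95% interval −0.74 to 0.16) and −0.35 in CON-BDEV (unadjusted p = 0.0174, adjusted p = 0.159). Cxcl10, a chemokine induced by interferon and NF-kB, had 0.389, 0.789, 0.586 and 1.5 FPKM in SE-BDEV, 1.36, 0.421, 0.926 and 0.395 FPKM in CON-BDEV, and 1.64, 1.01, 1.16 and 1.29 FPKM in Vehicle replicates, on about 11 to 54 fragments each. Both vesicle groups overlapped Vehicle, and the log2 fold change of Cxcl10 was −0.35 in SE-BDEV (adjusted p = 0.363) and −0.38 in CON-BDEV (adjusted p = 0.245). It fell under the level filter of the fit of all 12 libraries. Art3, which Cxcl10 overlaps on the other strand, averaged 0.660 FPKM in SE-BDEV, 0.785 FPKM in CON-BDEV and 0.495 FPKM in Vehicle libraries. Vcam1, an adhesion molecule for leukocytes, had 0.769, 1.91, 0.921 and 1.06 FPKM in SE-BDEV, 1.08, 1.58, 1.49 and 1.47 FPKM in CON-BDEV, and 1.15, 1.02, 0.827 and 1.21 FPKM in Vehicle replicates. CON-BDEV replicate 1 lay within the Vehicle range, and the log2 fold change of Vcam1 in CON-BDEV was 0.23 (unadjusted p = 0.0435, adjusted p = 0.245).

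Csf1 and Sod2 were the more abundant inflammatory targets. Csf1, the growth factor of macrophages, had 11.1, 14.8, 12.7 and 12.7 FPKM in SE-BDEV, 12.5, 13.9, 12.6 and 13.3 FPKM in CON-BDEV, and 12.9, 12.5, 12.2 and 12.3 FPKM in Vehicle replicates. Sod2, the mitochondrial superoxide dismutase, had 30.8, 24.1, 28.5 and 29.6 FPKM in SE-BDEV, 30.2, 25.8, 27.6 and 27.9 FPKM in CON-BDEV, and 30.4, 29.8, 29.6 and 29.4 FPKM in Vehicle replicates. For both genes the groups overlapped. The log2 fold change of Csf1 was 0.03 in SE-BDEV and 0.06 in CON-BDEV, and that of Sod2 was −0.08 in SE-BDEV and −0.10 in CON-BDEV (unadjusted p = 0.0489, adjusted p = 0.259).

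The 2 tested genes of the acute phase and STAT3 group had log2 fold changes of opposite sign in SE-BDEV, and neither passed the test. Cebpb, a transcription factor that cooperates with NF-kB at acute phase genes, had 3.69, 6.12, 2.60 and 3.37 FPKM in SE-BDEV, 3.09, 5.64, 4.97 and 5.48 FPKM in CON-BDEV, and 5.62, 4.98, 5.51 and 5.46 FPKM in Vehicle replicates. SE-BDEV replicate 2 lay above all Vehicle libraries and the other 3 SE-BDEV libraries below them. Its log2 fold change in SE-BDEV was −0.42 (95% interval −0.78 to −0.05, adjusted p = 0.272), and −0.61 with an adjusted p of 0.0133 when SE-BDEV replicate 2 was left out. Tmem189, which Cebpb overlaps on the other strand, averaged 48.6 FPKM in SE-BDEV, 48.0 FPKM in CON-BDEV and 45.4 FPKM in Vehicle libraries. Socs3, the feedback inhibitor of STAT3 signalling, had 3.18, 2.73, 3.02 and 2.84 FPKM in SE-BDEV, 2.42, 2.83, 2.78 and 2.61 FPKM in CON-BDEV, and 2.53, 2.16, 2.29 and 2.34 FPKM in Vehicle replicates. The SE-BDEV libraries of Socs3 lay above Vehicle, and 3 of the 4 CON-BDEV libraries did. Socs3 had a log2 fold change of 0.24 in SE-BDEV (unadjusted p = 0.0054, adjusted p = 0.147) and 0.13 in CON-BDEV (adjusted p = 0.316).

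Other genes of these pathways were read from 5 further lists with 140 measured genes, of which 92 were tested. In SE-BDEV against Vehicle 0 of the 92 were called, beside 0.919% of all genes. In CON-BDEV against Vehicle 1 was called higher and 0 lower, beside 1.02% higher and 1.82% lower of all genes, and in SE-BDEV against CON-BDEV 0 were called, beside 0%. The called gene was Trex1, an exonuclease that clears DNA from the cytoplasm. Trex1 had 3.44, 4.48, 5.02 and 5.42 FPKM in SE-BDEV, 5.60, 6.09, 5.29 and 6.59 FPKM in CON-BDEV, and 4.89, 3.65, 4.65 and 4.34 FPKM in Vehicle replicates. Its CON-BDEV libraries lay above all Vehicle libraries, with a log2 fold change of 0.36 (standard error 0.08) and an adjusted p of 0.0473 in limma. The Trex1 call was lost without CON-BDEV replicate 2, 3 or 4 (adjusted p = 0.0735, 0.0542 and 0.140) and without Vehicle replicate 1, 2, 3 or 4 (adjusted p = 0.0648, 0.102, 0.0908 and 0.106). In SE-BDEV against CON-BDEV the log2 fold change of Trex1 was −0.31 with an unadjusted p of 0.0124 and an adjusted p of 1.00. The most abundant gene of each list, averaged over the 12 libraries, was the kinase gene Jak1 among interferon receptors and JAK-STAT genes (32.4 FPKM), the helicase gene Dhx9 in nucleic acid sensing (123 FPKM), Zc3hav1, the antiviral protein ZAP, among other interferon-stimulated genes (29.1 FPKM), Commd1 in NF-kB signalling (133 FPKM) and Hmox1, heme oxygenase 1, among other inflammatory targets (50.7 FPKM). Named in addition after their values were seen, the interferon genes Ifnb1, Ifna4 and Ifng were listed at 0 in all 12 libraries. The receptor genes Ifnar1 and Ifnar2 ranged from 8.45 to 9.76 FPKM and from 13.7 to 17.6 FPKM over the 12 libraries.

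In the authors' deposited table of each comparison with Vehicle, 38 of the 55 genes had a test and 0 were significant. The smallest q-value in the authors' deposited table was 0.0818 for Cebpb in SE-BDEV and 0.0659 for Lgals9 in CON-BDEV. For Nfkb2 the authors' deposited table gave a log2 fold change of −0.28 in SE-BDEV with a q-value of 0.464, and −0.27 in CON-BDEV with a q-value of 0.412. Over all genes the authors' deposited table marked 140 as significant in SE-BDEV and 215 in CON-BDEV.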

How the data were processed

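RNA of 12 libraries of N2a cells was sequenced after polyA selection with a strand-keeping kit, per the labels' protocols. FPKM values were deposited by the authors, who used TopHat2 and Cuffdiff with build mm9, per the submitters' processing notes; tool versions, annotation and strand setting are not given in these sources. The authors' deposited comparison tables hold, by their file headers, group FPKM, a log2 fold change, a test statistic (a score), a p-value and a q-value. One FPKM table held SE-BDEV and Vehicle, the other CON-BDEV and Vehicle libraries; the shared Vehicle columns lay within 0.0335% of a factor of 1, so both were put on 1 scale.

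For each fit, log2(FPKM + 1) was modelled in limma 3.58.1 (R 4.3.3) with trended empirical Bayes and two-sided tests. A gene entered when its mean over the fitted libraries was 1 FPKM or more, and Benjamini-Hochberg adjustment ran over every gene that entered, with a threshold of 0.05. Each vesicle group was compared with Vehicle over 8 libraries. SE-BDEV against CON-BDEV, and the mean of both vesicle groups against Vehicle, came from a fit of 12 libraries. Adding 1 FPKM understates the change of low genes. Adjusted and unadjusted p in the text are limma's, except where the authors' deposited table is named.

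Values per library are given for members past an adjusted or unadjusted p of 0.05 in any comparison, for the 2 members of each role with the highest mean FPKM, and for the 3 with the largest absolute log2 fold change in SE-BDEV or CON-BDEV against Vehicle or in SE-BDEV against CON-BDEV. Of the further lists, the genes called and the most abundant gene of each were named. The members, lists, markers and tests were chosen with earlier results of these data known. No label says that libraries of a group were separate cultures, so a p-value here reflects no more than the spread between these samples, possibly a technical one. Depth was approximated from FPKM values of at most 0.05 in genes whose longest GENCODE vM21 transcript has 1500 to 8000 bases. Exon overlaps come from the same annotation. Promoter windows came from RefSeq on GRCm38.p6, and gene positions from the deposited tables on mm9. The fit was also run on simulated data with larger changes than those of Nfkb2, Lgals9 and Trex1. That run therefore cannot show how well changes of their size are found. Python 3.11.15 and matplotlib 3.10.9 drew the figures. Alternatives were a pseudocount of 0.25 FPKM, no filter on low values, and median scaling. Median scaling divided each library by the median, over genes, of its ratio to the gene's mean over the libraries. Further alternatives were the replicate number as a block, a fit of all 12 libraries, and leaving out each library.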

Additional observations from a re-analysis of the deposited data

Results flagged for a closer look

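In groups of 4 libraries a value was singled out where its gap to the nearest other value was, as a share of the range of the group, over the 95% critical value of Dixon's test. Of 72 groups examined, 3 held such a value, where chance gives about 1 in 20. Lgals9 in CON-BDEV replicate 4 was the lowest of its group at 7.65 FPKM, with a gap of 0.927 of the range; the log2 fold change of Lgals9 against Vehicle had an adjusted p of 0.0919 in limma without that library. Stat3 in CON-BDEV replicate 4 was the lowest of its group at 27.8 FPKM, with a gap of 0.839 of the range. Eif2ak2 in Vehicle replicate 2 was the highest of its group at 10.9 FPKM, with a gap of 0.845 of the range.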

How the results depend on the processing

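Among Nfkb2, Lgals9 and Trex1, none changed direction in a comparison where it was called, under any alternative run; those for Trex1 were added after seeing the data; where a count moved, the cause was not tested unless named. Without the filter on low values the genes called fell to 0 in SE-BDEV (members 0), 176 in CON-BDEV (members 0) and 225 for either vesicle group against Vehicle; more genes were tested there. In the fit of all 12 libraries 171 genes and 0 members were called in SE-BDEV and 133 genes in CON-BDEV. With the replicate number as a block they were 48 and 0 in SE-BDEV and 135 in CON-BDEV. Same-numbered libraries had correlations of deviations from −0.10 to 0.04 for SE-BDEV with Vehicle and −0.06 to 0.02 for CON-BDEV with Vehicle. For SE-BDEV with CON-BDEV they were 0.20, 0.30, −0.07 and −0.12 in replicates 1 to 4. SE-BDEV replicates 1 and 2 were closest to the same-numbered CON-BDEV library, and replicates 3 and 4 were not. The numbers were not taken as pairs. Leaving out 1 library at a time, the genes called ranged from 5 to 315 in SE-BDEV (members 0 to 2), from 134 to 556 in CON-BDEV (members 0 to 3), and from 124 to 510 for either vesicle group (members 0 to 1), and were 0 in SE-BDEV against CON-BDEV. The median over the members ranged from −0.0488 to −0.0013 in SE-BDEV, −0.061 to −0.0036 in CON-BDEV, −0.043 to −0.0037 for either vesicle group, and −0.0150 to 0.0329 in SE-BDEV against CON-BDEV. Nfkb2 in SE-BDEV had an adjusted p in limma of 0.0976 without the filter, 0.0807 with the block and 0.0568 in the fit of 12 libraries, and Lgals9 in CON-BDEV 0.0932 without the filter. Trex1 in CON-BDEV had an adjusted p in limma of 0.123 without the filter, 0.112 with the block and 0.132 in the fit of 12 libraries. The pseudocount of 0.25 FPKM and median scaling changed no count of members called. Depth limits Isg15 and Cxcl10, at about 12 to 42 and 11 to 54 fragments. The filter on low values left the 22 genes under 1 FPKM untested in the 12-library fits.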
